A study of Mus musculus with 16 samples.

Results

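In B16-BL6 mouse melanomas, irradiation alone raised 3 collagen genes, Col7a1, Col18a1 and Col20a1, and the same 3 rose when 5-aminolevulinic acid (ALA) was given before the X-rays. The chains of collagen types I, III and V, with Col14a1, Col8a1 and Col6a1, rose in ALA plus X-ray against ALA alone, with wide spread between tumours. Of the cartilage-type chains, Col11a2 and Col9a1 fell in the same group, Col11a1, Col9a2 and Col9a3 were not called, and the probes of Col2a1 disagreed. The collagen genes were taken as every gene of the array whose symbol has the form of a collagen chain (Col, a type number, the letter a and a chain number), which gave 41 genes of 30027 distinct names, on 74 of 41174 probes. They comprise 11 chains of fibrillar collagens, 8 of basement membranes and 22 others. Of these, 30 could be tested, as 10 fibrillar, 7 basement membrane and 13 other genes.

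The tumours were B16-BL6 melanomas, a pigmented mouse cell line, carried by male C57BL/6J mice aged 8 weeks, and each sample was a separate tumour preparation. The 4 groups of 4 tumours were untreated controls, ALA alone, X-ray alone, and ALA plus X-ray, in which ALA was applied locally at 50 mg per kg ahead of the fractionated irradiation. ALA is a precursor of heme from which cells make the photosensitiser protoporphyrin IX. The radiation dose and the number of fractions are not given in the sources used here. All tumours grew in hosts with their own stroma, so a whole-tumour RNA holds transcripts of tumour and host cells, and fewer cells of a type and less RNA per cell cannot be told apart.

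Each RNA was read on its own Agilent whole-genome array with 1 dye. Values are log2 processed signals relative to the 75th percentile of the same array, so a difference of 1 is a 2-fold difference, and they are not comparable between genes because each probe binds with its own strength. The 75th percentile was 213 to 521 and 44.3% to 53.6% of spots were well above background, with 0 saturated. The melanoma marker sum was 860 to 1210 in linear units and its 7 genes were above background on every array. Each of 4 slides carried 1 array of every group and had its own scan, so slide and replicate number coincide, and position on the slide cannot be told apart from group. In ALA plus X-ray, replicate 1 stood apart from the other 3 in the matrix genes, and the counts of calls for this group are given with and without it. It was picked out on values that include those of the collagens, so fits without it are descriptive and not used as support.

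Collagens are secreted proteins of 3 chains wound into a triple helix, for which 1 amino acid in each group of 3 must be glycine. Fibrillar collagens form the tensile fibres of connective tissue, in tumours mainly as products of fibroblasts. Basement membrane collagens form the sheets under epithelium and around vessels, and the others link, decorate or anchor fibres. The glycine rule can be read on 3 of the array's own 60-base probes, which lie in the helical part of fibrillar chains. They are shown with each glycine codon of the run in capitals, 5′ to 3′ on the coding strand.

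Col11a2 (mm9, chr17:34189287-34189453, plus strand): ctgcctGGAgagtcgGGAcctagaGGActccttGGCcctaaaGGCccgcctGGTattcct
Col5a1 (mm9, chr2:27842243-27844666, plus strand): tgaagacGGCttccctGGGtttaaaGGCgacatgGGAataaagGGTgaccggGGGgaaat
Col5a3 (mm9, chr9:20590066-20590795, minus strand): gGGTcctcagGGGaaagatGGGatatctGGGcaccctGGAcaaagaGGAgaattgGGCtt

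The runs hold 6, 6 and 7 glycine codons, spaced by 2 other codons. Each of these probes covers more genomic bases than its 60, so it spans exon borders. None of the 3 was above background on 4 or more arrays, against 40 of the other 71 collagen probes. Results below rest for Col11a2, Col5a1 and Col5a3 on other probes of these genes.

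Of the 11 genes that were not tested, 5 were above background on no array (Col10a1, Col22a1, Col23a1, Col28a1 and Col4a3) and 6 on 1 to 3 arrays (Col17a1, Col19a1, Col24a1, Col25a1, Col6a6 and Col8a2). Col10a1 belongs to the growth plate and Col17a1 to the hemidesmosomes of epidermis. Of the 30 tested genes, 25 were above background on all 16 arrays. The filter could be passed through 1 group, so a low gene may have entered because it was high in 1 group.

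**Figure D1:**
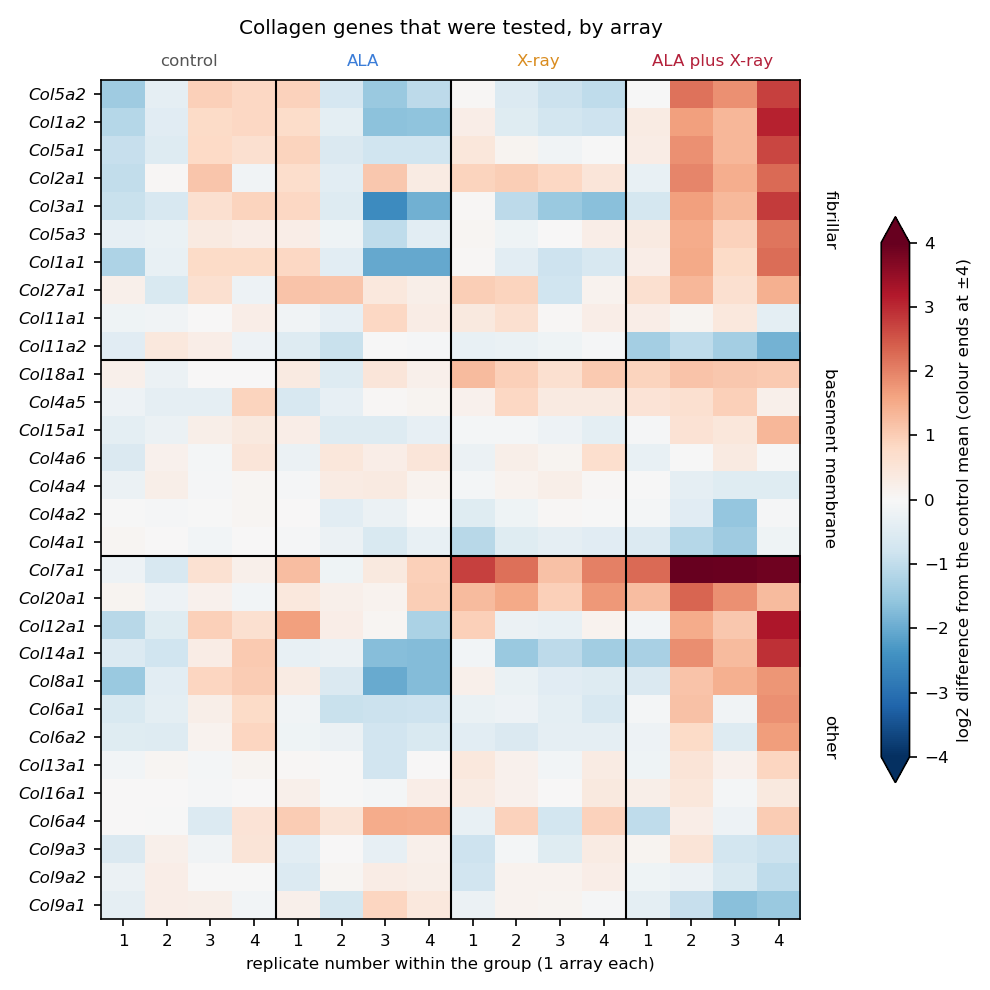
Log2 difference from the control mean for the 30 tested collagen genes (rows, by class) on each of 16 arrays (columns, 4 per group, replicate 1 to 4). The colour scale ends at ±4. The upper fibrillar rows are red in ALA plus X-ray replicates 2 to 4 and pale in replicate 1, while Col7a1, Col20a1 and Col18a1 are red in all 8 irradiated arrays.

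X-ray against control asks what irradiation alone does. Of the 30 collagen genes, 3 rose and 0 fell, where 3.37% of all 15399 genes tested were called, 1.99% up and 1.38% down. Those 3 belong to the basement membrane class (Col18a1) and to the others (Col7a1, Col20a1). No fibrillar chain passed.

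Col7a1 encodes the chain of the anchoring fibrils that tie the skin's basement membrane to the dermis. Its log2 signal was -2.88, -3.33, -2.07 and -2.48 in the controls and 0.04, -0.50, -1.51 and -0.69 after X-ray. It was -1.45, -2.87, -2.29 and -1.73 with ALA, and -0.42, 1.40, 1.27 and 1.19 with ALA plus X-ray. All 8 irradiated tumours lay above all 8 unirradiated ones except X-ray replicate 3, which lay just below ALA replicate 1. Among all genes, 7.83% were higher without overlap in X-ray than in control, and 8.99% in ALA plus X-ray than in control. X-ray raised Col7a1 by 2.03 ± 0.45 (SE, n = 4 per group), a 4.07-fold difference (limma, adjusted p = 0.0306), and within slides by 2.92, 2.83, 0.57 and 1.78. In ALA-treated tumours it rose by 2.94 ± 0.45, or 7.70-fold (limma, adjusted p = 0.00204), and ALA plus X-ray exceeded control by 3.55 ± 0.45, or 11.7-fold (limma, adjusted p = 0.00093). ALA plus X-ray stood 1.52 above X-ray alone, which did not pass (limma, adjusted p = 0.0747), and the interaction, the difference between the X-ray effects with and without ALA, was 0.92 ± 0.63 (limma, adjusted p = 0.437). Without ALA plus X-ray replicate 1, the lowest of its group, the difference from X-ray was 1.95 ± 0.39 (limma, adjusted p = 0.00753). That array was left out after its values were seen, so this pass is not used as support.

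Col18a1 encodes collagen XVIII, a basement membrane collagen whose C-terminal fragment is endostatin, an inhibitor of vessel growth. Its log2 signal was 2.94, 2.52, 2.76 and 2.78 in control and 3.11, 2.24, 3.23 and 2.96 in ALA tumours. It was 4.02, 3.69, 3.39 and 3.79 after X-ray and 3.65, 3.88, 3.82 and 3.80 after ALA plus X-ray. The irradiated and unirradiated tumours did not overlap, replicate 1 of ALA plus X-ray included. Of all genes, 7.83% were higher without overlap in X-ray than in control, and 9.29% in ALA plus X-ray than in ALA. X-ray raised it by 0.97 ± 0.19 (1.96-fold) without ALA and by 0.90 ± 0.19 (1.87-fold) with ALA (limma, adjusted p = 0.0244 and 0.00718, n = 4 per group), and the interaction was -0.07 ± 0.27. A second probe of the gene lies in the part that codes for endostatin and is shown because it measures that fragment's own code.

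Col18a1 (mm9, chr10:76516065-76516124, minus strand): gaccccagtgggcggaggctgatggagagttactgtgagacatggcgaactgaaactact

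With each of 21632 probes tested on its own, this probe rose by 0.97 ± 0.24 after X-ray (limma, adjusted p = 0.0468). Compared with control it rose by 0.73 ± 0.24 after ALA plus X-ray (limma, adjusted p = 0.043), and differed by 0.59 between ALA plus X-ray and ALA (limma, adjusted p = 0.0884). On it, every irradiated tumour lay above every control except ALA plus X-ray replicate 3, which was 1.13 where the controls were 0.76 to 1.18.

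Col20a1 encodes a chain of the FACIT group, collagens with interrupted helices that attach to the surface of fibres. Its log2 signal was -2.54, -2.84, -2.46 and -2.74 in control, -2.22, -2.43, -2.51 and -1.65 in ALA, -1.39, -1.12, -1.68 and -0.91 in X-ray and -1.41, -0.31, -0.82 and -1.36 in ALA plus X-ray tumours. Every irradiated tumour was above every control, and only X-ray replicate 3 was below an ALA tumour. Of all genes, 7.83% were higher without overlap in X-ray than in control, and 8.99% in ALA plus X-ray than in control. X-ray raised Col20a1 by 1.37 ± 0.25, or 2.58-fold (limma, adjusted p = 0.0208, n = 4 per group), and by 1.23 ± 0.25 in ALA-treated tumours (limma, adjusted p = 0.00603). Within slides the X-ray difference was 1.15, 1.71, 0.78 and 1.84 without ALA.

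The 3 calls after X-ray alone depended on single arrays and on the processing. Each was lost when control replicate 2 or 4, or X-ray replicate 1, 2 or 4, was left out, with limma adjusted p up to 0.28 for Col7a1 and 0.244 for Col18a1 and Col20a1. Most calls of any gene were lost with them. Without control replicate 2 or 4, 0.013% and 0.0325% of all genes were called, and without X-ray replicate 1 or 2, 0.00649% and 0.0714%. With all arrays the share was 3.37%. All 3 were lost without a filter (0.01% of all genes called), Col7a1 and Col18a1 with median scaling (0.182%), and Col7a1 and Col20a1 with normexp background (3.22%). Over all alternatives the difference was 1.02 to 2.51 for Col7a1, 0.81 to 1.09 for Col18a1 and 0.62 to 1.56 for Col20a1. With ALA plus X-ray against control, Col7a1 passed under all 30 alternatives, at an adjusted p of at most 0.0484.

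**Figure D2:**
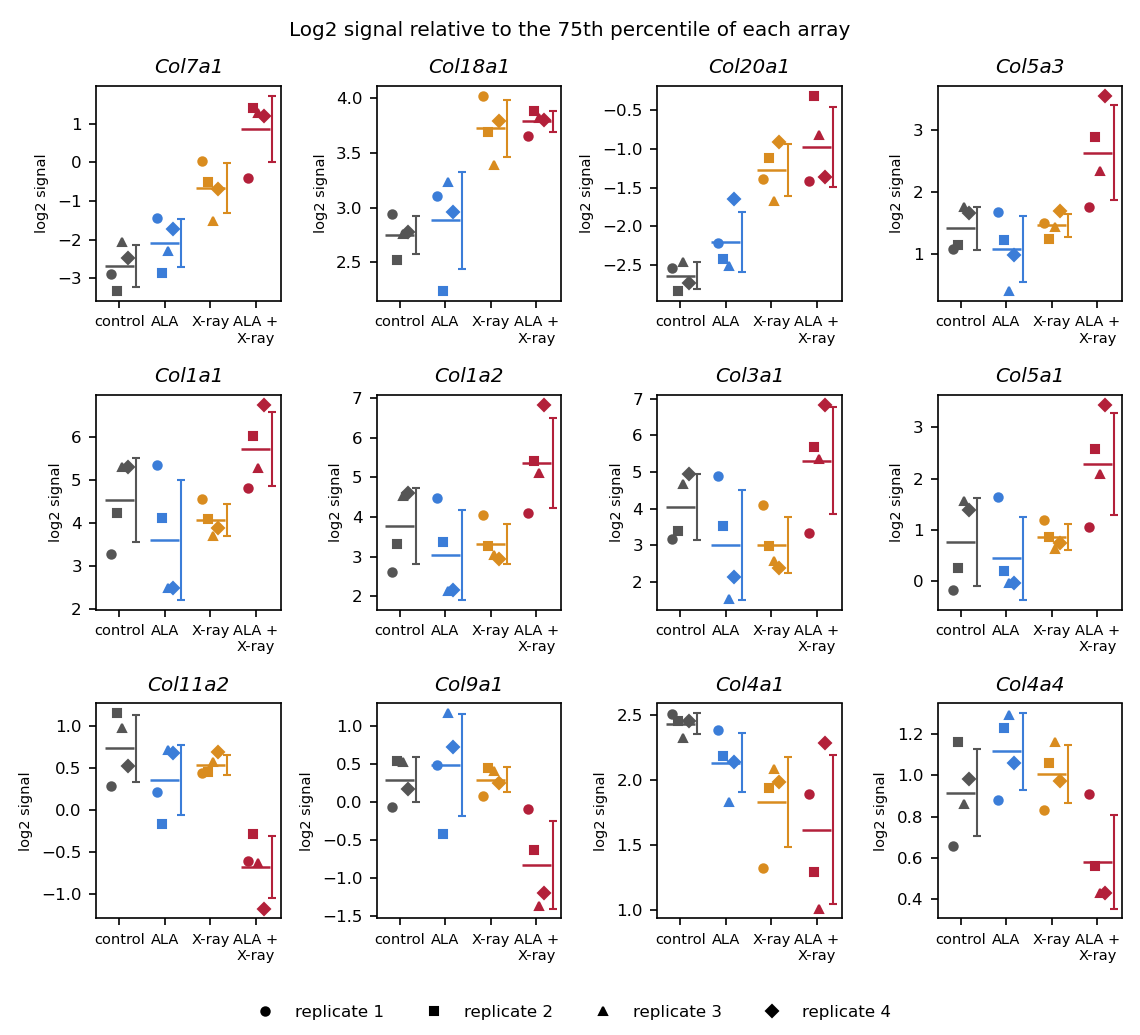
Log2 signal relative to the array's 75th percentile (y axis) of 12 collagen genes in each tumour, by group; symbols mark replicates 1 to 4, horizontal lines the group mean, and bars the SD over 4 tumours. Col7a1, Col18a1 and Col20a1 are high in both irradiated groups, Col1a1 to Col5a1 spread widely in ALA plus X-ray, and Col11a2 is low in all 4 ALA plus X-ray tumours.

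ALA alone against control left the collagen genes without a call. Of 30, 0 passed, as did 0 of all 15399 genes (0% called). The fibrillar median was -0.36 (log2), that of basement membrane chains -0.17 and that of the others 0.01, with 0.00 over all genes. Tumours of 1 group differed widely. Col3a1, the chain of collagen III, was 3.16, 3.40, 4.68 and 4.93 in control tumours but 4.88, 3.53, 1.52 and 2.12 in ALA tumours.

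ALA plus X-ray against ALA alone, the effect of irradiation in ALA-treated tumours, called the most collagen genes. Of the 30, 14 rose and 3 fell, which is 46.7% and 10.0%, where 24.1% of all genes were called, 10.7% up and 13.4% down. By class, 6 fibrillar genes rose and 1 fell, 3 basement membrane genes rose and 1 fell, and 5 others rose and 1 fell. The fibrillar median was 1.70, that of the basement membrane class -0.24 and that of the others 0.88, against -0.13 over all genes. These medians describe lists that were not tested as sets. Without ALA plus X-ray replicate 1, 15 rose and 3 fell, where 37.8% of all genes were called. The 15 include Col2a1, whose probes disagree and which is not used as support. Col1a1 then differed by 2.41, Col1a2 by 2.75, Col3a1 by 2.94, Col5a2 by 2.80, Col14a1 by 3.01 and Col8a1 by 2.44, and Col4a5 lost its call (limma, adjusted p = 0.0536). Without replicate 2, 3 or 4 of that group 8, 10 and 9 were called, where 15.3%, 14.4% and 16.3% of all genes were. Without ALA replicate 3 or 4, 4 rose each time (Col18a1, Col20a1, Col5a3 and Col7a1), where 18% and 14.1% of all genes were called. Col1a1, Col1a2, Col3a1, Col5a1, Col5a2, Col6a1, Col8a1 and Col14a1 lost their calls both times. On these 2 ALA arrays Col1a1 read 2.48 and 2.47 against 5.34 and 4.11 on the others.

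Type I collagen, the main fibre protein of skin, tendon and bone, is a trimer of Col1a1 and Col1a2 chains. Col1a2 had log2 signals of 2.62, 3.32, 4.53 and 4.61 in control, 4.49, 3.37, 2.13 and 2.16 in ALA, 4.06, 3.27, 3.04 and 2.94 in X-ray and 4.10, 5.41, 5.10 and 6.84 in ALA plus X-ray tumours. Replicates 2 to 4 of ALA plus X-ray were above every other tumour, and replicate 1 was below 1 ALA and 2 control tumours. Against ALA it rose by 2.33 ± 0.63, or 5.02-fold (limma, adjusted p = 0.0189, n = 4 per group), with -0.39, 2.04, 2.97 and 4.68 within slides. Col1a1 rose by 2.11 ± 0.63 (limma, adjusted p = 0.028), with -0.54, 1.92, 2.79 and 4.28 within slides. Both chains were highest in ALA plus X-ray replicate 4 and lowest in replicate 1.

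Col1a1 was read by 3 probes, of which 2 lie in parts of the chain that are cut off when the molecule matures, and these are shown because they sit near opposite ends of the transcript. The first codes for the N-propeptide, the second for the C-propeptide.

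Col1a1, position 228 of the transcript (mm9, chr11:94799277-94799336, plus strand): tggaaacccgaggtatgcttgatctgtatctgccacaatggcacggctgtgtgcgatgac
Col1a1, position 3909 of the transcript (mm9, chr11:94812052-94812111, plus strand): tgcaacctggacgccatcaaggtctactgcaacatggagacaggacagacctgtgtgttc

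The C-propeptide probe was above background on all 16 arrays, and differed between ALA plus X-ray and ALA by 2.09 ± 0.74 (limma over probes, adjusted p = 0.0538). The N-propeptide probe was above background on 3 ALA plus X-ray, 1 control, 0 ALA and 0 X-ray arrays, so it entered through the group where it was high and its differences support nothing. It read -4.57, -3.40, -3.39 and -1.98 in ALA plus X-ray and -5.62, -5.37, -3.73 and -5.67 in control tumours.

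Col3a1, which forms reticular fibres and co-assembles with type I, was 3.34, 5.69, 5.34 and 6.84 in ALA plus X-ray and 4.10, 2.98, 2.57 and 2.38 in X-ray tumours. Replicate 1 again lay within the range of the other groups. It was 2.29 ± 0.78 above ALA (4.89-fold; limma, adjusted p = 0.0464), a call lost in 20 of 31 alternatives, slide as a block among them (adjusted p = 0.0691), over which the difference ranged from 1.48 to 3.56. A second, dimmer probe was above background on 3 ALA plus X-ray, 1 control, 0 ALA and 0 X-ray arrays and is not used.

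Collagen V starts the assembly of type I fibres and sets their width. Its 3 chains rose together against ALA, Col5a1 by 1.84 ± 0.51, Col5a2 by 2.24 ± 0.65 and Col5a3 by 1.57 ± 0.34 (limma, adjusted p = 0.0204, 0.0251 and 0.00733). Col5a3 had the least spread, with 1.08, 1.15, 1.76 and 1.67 in control, 1.68, 1.23, 0.40 and 0.99 in ALA, 1.50, 1.24, 1.43 and 1.69 in X-ray and 1.76, 2.89, 2.35 and 3.56 in ALA plus X-ray tumours. Its ALA plus X-ray values did not overlap those of ALA or X-ray, where 9.29% and 2.72% of all genes were higher without overlap. Replicate 1 equalled the highest control. Col5a3 and Col5a1 were the only fibrillar chains to rise against control, by 1.23 ± 0.34 and 1.53 ± 0.51 (limma, adjusted p = 0.0197 and 0.0415), and Col5a1 lost that call with slide as a block (adjusted p = 0.0609).

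Of the remaining fibrillar chains, Col27a1 was above background on 4 arrays and was not called. Col11a1 and Col11a2 are partners with Col2a1 in the thin fibres of cartilage. Col11a1 varied least, with group means from -1.60 to -1.27 and no call. Col11a2 fell, and was the only collagen gene called between ALA plus X-ray and X-ray alone. Its log2 signal was 0.29, 1.15, 0.98 and 0.52 in control, 0.21, -0.17, 0.71 and 0.68 in ALA, 0.44, 0.45, 0.57 and 0.69 in X-ray and -0.61, -0.29, -0.63 and -1.17 in ALA plus X-ray tumours. All 4 ALA plus X-ray tumours, replicate 1 included, were below all 12 others. It fell by 1.21 ± 0.24 against X-ray, by 1.41 ± 0.24 against control and by 1.03 ± 0.24 against ALA (limma, adjusted p = 0.0342, 0.00292 and 0.00948, n = 4 per group). The interaction was -0.83 ± 0.33 (limma, adjusted p = 0.203), so X-ray effects with and without ALA were not shown to differ. The call against X-ray was lost without X-ray replicate 2, 3 or 4 or ALA plus X-ray replicate 2, 3 or 4, at limma adjusted p up to 0.361. Without X-ray replicate 2, 0.0584% of all genes were called in that comparison, where 2.07% were called with all arrays. The call against control held in all 31 alternatives.

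Col2a1, the main chain of cartilage fibres, was read by a pair of probes that share 40 of 60 bases and lie at the end of the coding part. They are shown because they disagree; the capitals mark the shared bases.

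Col2a1, position 4601 of the transcript (mm9, chr15:97806505-97806564, minus strand): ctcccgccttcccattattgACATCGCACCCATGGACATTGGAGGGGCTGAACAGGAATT
Col2a1, position 4621 of the transcript (mm9, chr15:97806485-97806544, minus strand): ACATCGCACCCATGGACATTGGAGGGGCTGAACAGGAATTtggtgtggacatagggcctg

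The log2 difference of the second probe from the first was -0.49 to 0.74 on the 12 arrays of the other groups. On ALA plus X-ray replicates 1 to 4 it was 0.04, 1.74, 2.66 and 2.29. Between ALA plus X-ray and control the second probe differed by 1.34 ± 0.52 and the first by -0.17 ± 0.38 (limma over probes, adjusted p = 0.0721 and 0.776), so the direction for Col2a1 depends on the probe and none is given here.

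**Figure D3:**
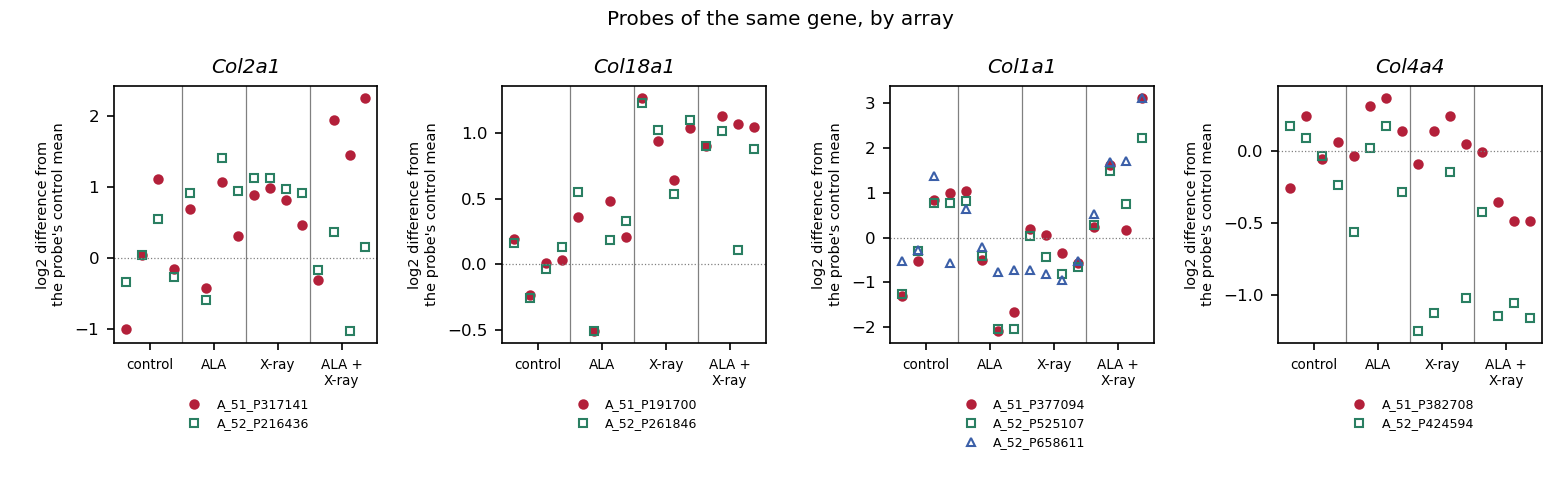
Log2 difference from each probe's own control mean (y axis) for the tested probes of 4 collagen genes on 16 arrays, in order of replicate within each group; each symbol is 1 probe on 1 array. The Col2a1 probes coincide on most arrays and part in ALA plus X-ray replicates 2 to 4, and the Col4a4 probes part in X-ray replicates 1, 2 and 4.

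Among the basement membrane collagens, type IV forms the network of the sheet, as trimers of Col4a1 and Col4a2 in most tissues and of Col4a3, Col4a4 and Col4a5 in kidney and other special sites. In RefSeq (GRCm38.p6) the transcripts of Col4a1 and Col4a2 start on opposite strands of chromosome 8 and overlap by 22 bases, chr8:11312805-11312826. Col4a1 was 2.51, 2.45, 2.32 and 2.45 in control, 2.38, 2.18, 1.83 and 2.14 in ALA, 1.32, 1.94, 2.08 and 1.98 in X-ray and 1.89, 1.29, 1.01 and 2.28 in ALA plus X-ray tumours. All 8 irradiated tumours were below all 4 controls. Of all genes, 10.5% were lower without overlap in X-ray than in control, and 11.6% in ALA plus X-ray than in control. Col4a1 fell by 0.82 ± 0.24 in ALA plus X-ray (limma, adjusted p = 0.0261, n = 4 per group), and X-ray alone differed by -0.60 ± 0.24 (adjusted p = 0.162). A second probe, which codes for the globular end by which trimers join, is shown as the independent reading of the gene.

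Col4a1 (mm9, chr8:11199846-11201680, minus strand): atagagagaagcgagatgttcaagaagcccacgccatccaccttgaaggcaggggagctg

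This probe fell by 0.90 ± 0.27 in ALA plus X-ray against control (limma over probes, adjusted p = 0.0276). For Col4a2, the probe that stands for the gene differed by -0.53 ± 0.26 (limma, adjusted p = 0.141) and its second probe fell by 1.00 ± 0.30 (limma over probes, adjusted p = 0.0307). Neither chain was called in another comparison.

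Of the rarer chains, Col4a4 fell by 0.53 ± 0.14 against ALA (limma, adjusted p = 0.0189). Its other probe fell in the same comparison (-0.79 ± 0.24, limma over probes, adjusted p = 0.0333) but differed from the first after X-ray alone, at -0.89 ± 0.24 against 0.09 ± 0.15 (limma over probes, adjusted p = 0.065 and 0.775). Col4a5 rose by 0.79 ± 0.27 against ALA (limma, adjusted p = 0.0489), a call lost in 23 of 31 alternatives, slide as a block among them (adjusted p = 0.056). Col4a6 was not called. Col15a1, the multiplexin related to Col18a1, rose by 0.85 ± 0.26 against ALA (limma, adjusted p = 0.0326), with -1.15, -0.52, -0.65 and 0.22 in ALA plus X-ray and -0.82, -1.63, -1.62 and -1.42 in ALA tumours. As with type I, replicate 1 was the lowest of its group.

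Among the other collagens, Col14a1, a FACIT chain bound to type I fibres, was -2.38, 0.77, 0.16 and 1.84 in ALA plus X-ray and -1.21, -2.55, -2.15 and -2.47 in X-ray tumours. Replicate 1 lay among the X-ray values and the other 3 above them. The difference from ALA was 2.18 ± 0.73 (limma, adjusted p = 0.043; 0.0596 with slide as a block). Col8a1, the short-chain network collagen of vessel walls, differed by 1.93 ± 0.63 (limma, adjusted p = 0.0401; 0.06 with slide as a block), and was 1.44, 3.18, 3.46 and 3.79 in ALA plus X-ray tumours. Col6a1, a chain of the beaded microfilaments around cells, rose by 1.38 ± 0.40 (limma, adjusted p = 0.0251), and its trimer partner Col6a2 differed by 0.88 ± 0.40 (adjusted p = 0.118). A probe of Col6a3 was not found by the symbol rule, so it has no value here. Col12a1, a FACIT partner of type I, was above background in 3 ALA plus X-ray, 1 control, 1 ALA and 0 X-ray tumours and was not called.

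Collagen IX decorates the fibres of cartilage as a trimer of Col9a1, Col9a2 and Col9a3. Col9a1 was -0.06, 0.54, 0.53 and 0.18 in control, 0.49, -0.42, 1.17 and 0.73 in ALA, 0.08, 0.45, 0.41 and 0.25 in X-ray and -0.09, -0.63, -1.36 and -1.20 in ALA plus X-ray tumours. It fell by 1.12 ± 0.32 against control and by 1.32 ± 0.32 against ALA (limma, adjusted p = 0.0219 and 0.0118), and its partners differed by -0.51 ± 0.26 and -0.25 ± 0.33 from control (adjusted p = 0.154 and 0.615). Replicate 1 was the highest of its group and lay just below the lowest control, within the range of the ALA tumours. Among all genes, 11.6% were lower without overlap in ALA plus X-ray than in control. Of 8 cartilage and bone markers 5 were tested, with a median of -0.15 against control, 2 above 0 and 3 below. Of these, 2 rose and 0 fell, where 9.77% of all genes rose and 15.1% fell. Sox9, a factor that drives cartilage genes, rose by 2.22 ± 0.34 (limma, adjusted p = 0.00214). The other was the bone matrix gene Bglap, at least 12.3-fold higher. It was above background on 0 control, 0 ALA, 4 X-ray and 4 ALA plus X-ray arrays. Bglap thus passed the filter only through the irradiated groups where it was high, and its rise is not used as support. The summed signal of the list was 1.63 to 3.42 in ALA plus X-ray, 1.76 to 2.82 in X-ray, 0.97 to 2.14 in ALA and 0.833 to 1.61 in control tumours, and its part in the collagen values was not tested.

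The other tested chains were not called in any comparison. Col16a1, a FACIT chain, varied little, with group means between 4.27 and 4.52 and at most 0.25 between groups. Col13a1, a collagen that spans the cell membrane, had group means between -1.79 and -1.26. Col6a4 was above background in all 4 ALA tumours, 2 X-ray, 2 ALA plus X-ray and 0 control tumours, and its difference of -1.10 between ALA plus X-ray and ALA did not pass (limma, adjusted p = 0.0825), but passed with slide as a block (0.0422), normexp background or quantile scaling, or without ALA plus X-ray replicate 4.

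ALA plus X-ray against control called 5 collagen genes up and 3 down, where 24.9% of all genes were called, 9.77% up and 15.1% down. The genes that rose were Col7a1, Col20a1 (1.67 ± 0.25, limma, adjusted p = 0.00207), Col18a1 (1.04 ± 0.19, limma, adjusted p = 0.00459), Col5a3 and Col5a1. Col11a2, Col9a1 and Col4a1 fell. The shares, 16.7% and 10.0% of 30, are near those of all genes. The fibrillar median was 1.24, the basement membrane median 0.01, that of type IV alone -0.33 and that of the others 0.43, with -0.08 over all genes. Without ALA plus X-ray replicate 1, 12 collagens rose and 4 fell, where 38.7% of all genes were called. The 12 include Col2a1, whose probes disagree, and Col12a1 and Col27a1, which passed the filter only with ALA plus X-ray. These are not used as support. Without replicate 2, 3 or 4 the calls were 5 each, where 14.2%, 14.2% and 17.1% of all genes were called.

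ALA plus X-ray against X-ray alone, the test of what ALA adds, called 0 collagen genes up and Col11a2 down, where 2.07% of all genes were called, 1.3% up and 0.766% down. The fibrillar median was 1.30, with 0 fibrillar genes called up, and the median over all genes was -0.08. Within slides the fibrillar median was -0.14, 1.68, 1.44 and 2.28. Leaving out ALA plus X-ray replicate 1 gave 9 collagen genes up and 3 down, where 20.4% of all genes were then called, and leaving out any 1 of the other 3 gave 0. The 9 were Col14a1, Col15a1, Col1a2, Col3a1, Col5a1, Col5a2, Col5a3, Col6a1 and Col7a1, with Col1a2 at 2.46 ± 0.64 (limma, adjusted p = 0.0197) and Col14a1 at 3.02 ± 0.55 (adjusted p = 0.00537).

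No collagen gene had an interaction of ALA and X-ray that passed, where 1.23% of all genes did. The 4 farthest above 0 were Col3a1 (3.32 ± 1.10, limma, adjusted p = 0.135), Col14a1 (3.18 ± 1.03, adjusted p = 0.126), Col5a2 (2.84 ± 0.92, adjusted p = 0.128) and Col1a2 (2.77 ± 0.89, adjusted p = 0.125). Without ALA plus X-ray replicate 1, 7 passed upward and 2 downward, where 6.92% of all genes passed. Within slide 1 the fibrillar median of the interaction was -1.83, with 0 of 10 genes above 0, and within slides 2, 3 and 4 it was 1.67, 2.67 and 3.33.

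**Figure D4:**
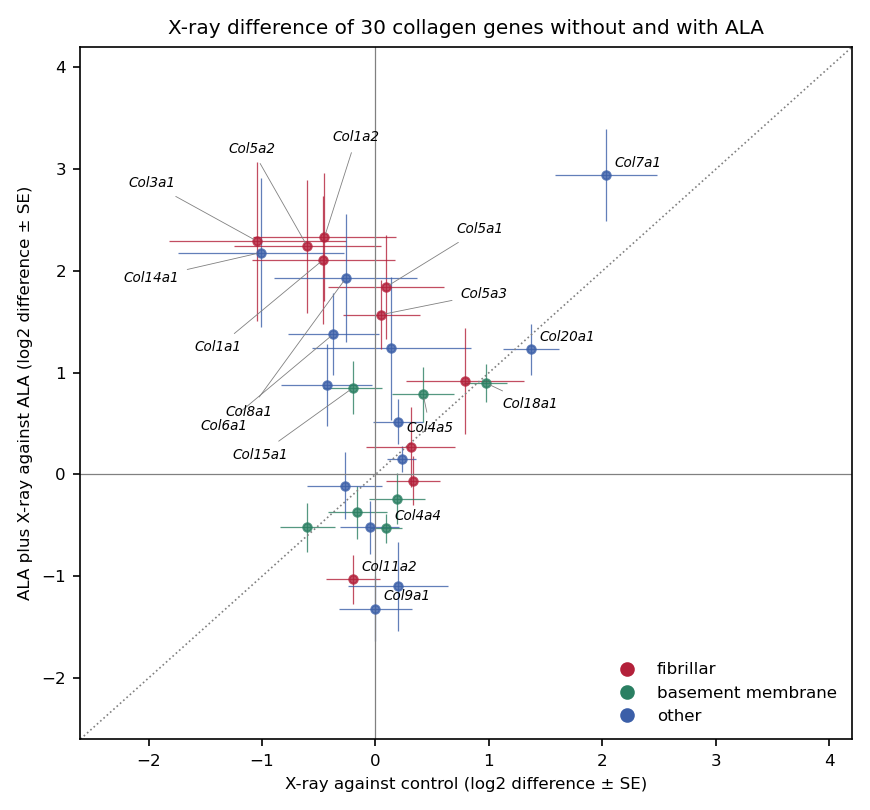
X-ray against control (x axis) and ALA plus X-ray against ALA (y axis), which share no arrays, as log2 differences ± SE for 30 collagen genes coloured by class; genes called in either are named and the dotted line marks equal differences. Col18a1 and Col20a1 lie near the line, and the chains of types I, III and V lie near or below 0 on the x axis and between 1.57 and 2.33 on the y axis.

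In ALA plus X-ray, the chains of types I, III and V were lowest in replicate 1 and highest in replicate 4. So was the sum of fibroblast markers, whose genes include the proteoglycan Dcn and the receptor Pdgfra. Col11a1 and Col11a2 were instead lowest in replicate 4. The summed linear signal of 10 fibroblast markers was 15.2 to 24.2 in control, 13.4 to 21.5 in ALA and 13.7 to 22.4 in X-ray tumours. In ALA plus X-ray replicates 1 to 4 it was 15.1, 44.0, 54.8 and 104, and 6, 10, 10 and 10 of the markers were above background. In control tumours 5 to 10 of them were above background, and in ALA and X-ray tumours 5 to 7. The fibrillar medians of ALA plus X-ray replicates 1 to 4, as differences from the control mean, were 0.27, 1.57, 1.11 and 2.25, and replicates 2 and 3 changed places. Of the 10 markers, 6 rose against ALA (5 with slide as a block), where 10.7% of all genes rose, among them Dcn (4.17 ± 1.18, limma, adjusted p = 0.0223). Against control or X-ray 0 rose in limma. Pdgfra, Fap, Thy1 and Dpt were above background on 3 ALA plus X-ray arrays each, and on 0, 0, 0 and 1 ALA arrays. Without ALA plus X-ray none of them would have passed the filter. The count of calls, which includes Fap, and the counts above background are therefore not used as support, and the sums include these genes too. With groups at background set to the lowest level above it, the list median against ALA was 1.67 instead of 2.67. Their part in the collagen result was not tested.

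Skeletal muscle markers, from tissue that can lie next to a tumour, summed to 1.52, 56.2, 887 and 78.5 in ALA plus X-ray and to 1.43, 1.53, 291 and 73.5 in control tumours, with 1.76 to 5.59 in ALA and 2.25 to 29.4 in X-ray. Control replicates 3 and 4, high in muscle, also had the higher fibrillar medians of their group, 0.70 and 0.46 against -0.91 and -0.33. Other groups differed. ALA replicate 1 had the lowest muscle sum of its group (1.76) and the highest fibrillar median (0.77). ALA plus X-ray replicate 3 had the highest muscle sum (887) and a fibrillar median of 1.11, below replicates 2 and 4 (1.57 and 2.25). In the controls, Col1a1 was 3.27, 4.23, 5.29 and 5.30. The part of muscle or of its connective tissue in the collagen values was not tested. Endothelial markers summed to 5.78 to 15.9 over all tumours and of 7 tested none rose in any comparison, while Kdr fell after X-ray (-1.22 ± 0.25, limma, adjusted p = 0.0265). Adipocyte markers, of which 3 of 5 were tested, had summed signals from 0.183 up to 27.2 in ALA plus X-ray tumours. The control sums ran from 0.075 to 1.71 and those after irradiation alone from 0.134 to 1.70, while ALA tumours reached 34 (lowest 0.075). Keratinocyte markers summed to 0.222 to 5.21 in ALA plus X-ray and 0.204 to 0.719 in the other tumours.

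**Figure D5:**
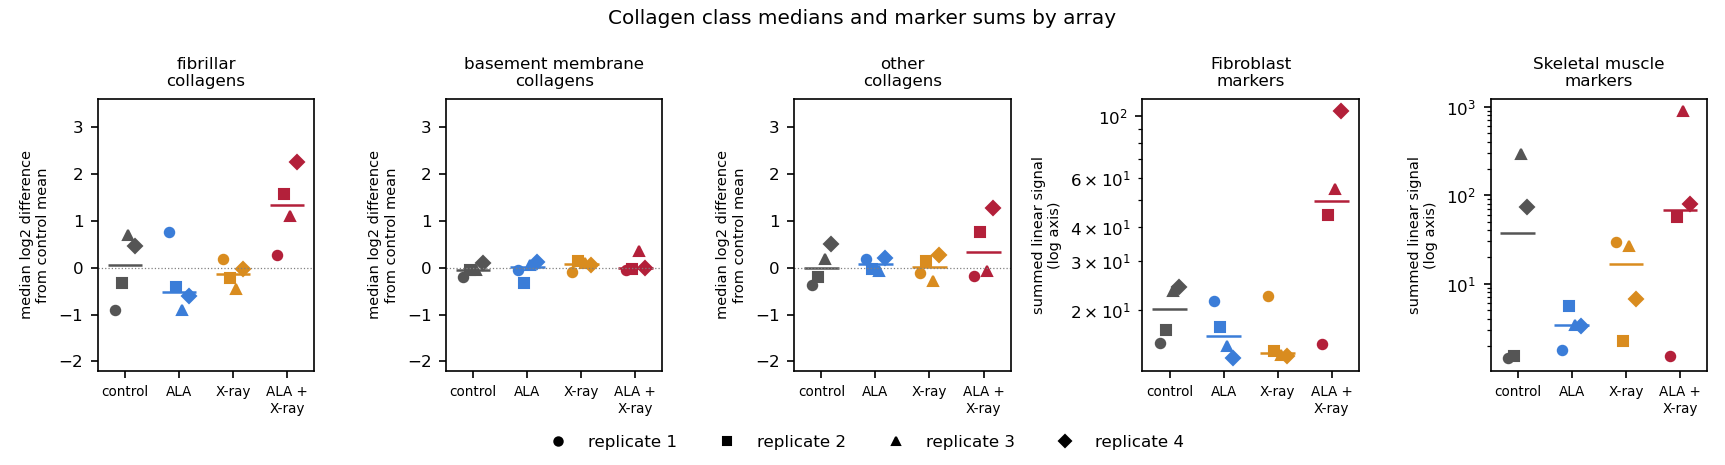
For each of 16 tumours, the median log2 difference from the control mean over the fibrillar (10), basement membrane (7) and other (13) collagens, and the summed linear signal of fibroblast (10) and skeletal muscle (12) markers on log axes; symbols mark replicates and lines group medians. The fibrillar panel and the fibroblast panel are high in ALA plus X-ray replicates 2 to 4, and the basement membrane panel stays between -0.33 and 0.35.

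Genes that make, bind and cut collagen were followed from lists. Of 32 genes for hydroxylation, folding, trimming and crosslinking, 26 were tested. Against ALA 8 rose and 0 fell, where 10.7% of all genes rose and 13.4% fell. Against control 6 rose and 1 fell (9.77% and 15.1% of all genes), and after X-ray alone 1 rose (1.99%). Pcolce, which speeds the removal of the C-propeptide, rose after X-ray by 0.74 ± 0.11 and against ALA by 0.66 ± 0.11 (limma, adjusted p = 0.0143 and 0.00304). Bmp1, the protease that removes it, rose by 0.82 ± 0.19 against ALA, and Adamts2, which removes the N-propeptide, by 2.09 ± 0.51 (limma, adjusted p = 0.00931 and 0.0131). Colgalt1, which adds sugar to helices, fell by 0.49 ± 0.14 against control (limma, adjusted p = 0.0215). The median of the list was -0.01 against ALA.

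Of 10 receptor genes 7 were tested, and 3 rose and 1 fell against ALA, where 10.7% of all genes rose and 13.4% fell. Lair1, an inhibitory collagen receptor of leukocytes, had a group mean of 0.17 in ALA plus X-ray, -3.57 in X-ray, -4.98 in ALA and -2.02 in control tumours. It was above background on 1 ALA, 2 X-ray, 4 control and 4 ALA plus X-ray arrays, so differences from ALA and X-ray rest in part on values at background. Its rise against X-ray (limma, adjusted p = 0.0431) and its interaction (adjusted p = 0.0295) both lost their call with slide as a block (adjusted p = 0.0545 and 0.0582). Itga11, the collagen-binding integrin chain of fibroblasts, above background on 1 ALA array, rose by 2.47 ± 0.76 and the receptor kinase Ddr1 by 0.94 ± 0.24 against ALA, while Itga1 fell by 0.91 ± 0.23 (limma, adjusted p = 0.0317, 0.0156 and 0.0158). Of 7 degrading enzymes 6 were tested. The gelatinase Mmp2 rose by 2.12 ± 0.53 against control and by 2.87 ± 0.53 against ALA, and Ctsk, a collagen-cutting cathepsin, by 1.25 ± 0.37 against control (limma, adjusted p = 0.0133, 0.00392 and 0.0275). Fap, a protease that is also on the fibroblast list, was not well above background in ALA tumours and was at least 2.80-fold higher in ALA plus X-ray. It was above background on 2 control, 0 ALA, 0 X-ray and 3 ALA plus X-ray arrays. It thus passed the filter only with the group where it was high, and its difference is not used as support.

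The promoters of 3 collagen genes are shown for comparison, Col7a1 and Col18a1 as genes raised by X-ray with and without ALA, and Col1a2 as a gene called only against ALA. Each is the 250 bases before the RefSeq start (GRCm38.p6), on the gene's strand, with GGGCGG and CCAAT on either strand in capitals. For Col18a1 the first of its listed starts is shown, and the window of its other start held neither motif.

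Col7a1 (chr9:108953336-108953585, plus strand): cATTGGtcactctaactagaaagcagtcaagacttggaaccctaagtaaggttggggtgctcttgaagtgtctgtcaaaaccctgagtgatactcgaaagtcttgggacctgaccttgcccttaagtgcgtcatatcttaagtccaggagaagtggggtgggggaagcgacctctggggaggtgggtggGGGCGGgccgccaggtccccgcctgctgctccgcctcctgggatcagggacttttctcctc
Col18a1 (chr10:77166531-77166780, minus strand): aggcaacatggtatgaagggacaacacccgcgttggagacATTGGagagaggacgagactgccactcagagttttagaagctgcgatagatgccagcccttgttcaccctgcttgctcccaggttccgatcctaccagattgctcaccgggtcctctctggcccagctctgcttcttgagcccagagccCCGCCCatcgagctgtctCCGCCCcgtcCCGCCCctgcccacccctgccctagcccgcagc
Col1a2 (chr6:4505368-4505617, plus strand): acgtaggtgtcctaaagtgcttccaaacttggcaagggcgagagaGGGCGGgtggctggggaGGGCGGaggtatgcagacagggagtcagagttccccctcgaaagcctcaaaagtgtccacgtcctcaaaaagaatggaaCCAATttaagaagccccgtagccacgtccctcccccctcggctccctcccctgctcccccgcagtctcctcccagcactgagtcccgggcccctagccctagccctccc

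GGGCGG, the letters of the GC box, occurred 1 time for Col7a1, 3 times for Col18a1 and 2 times for Col1a2, and CCAAT 1 time in each. RefSeq promoters matched 33 of the 41 collagen genes. GGGCGG was in 20 of them (60.6%) and in 35.4% of 27025 genes, CCAAT in 13 (39.4%) and in 37.5%, and TATAAA in 5 (15.2%) and in 14.3%. Of the 15 called genes with a promoter, 8 (53.3%) held GGGCGG and 2 (13.3%) held TATAAA. The AP-1 letters, TGANTCA, were in 1 of the 33 (3.03%) and in 7.82% of all genes, and the p53 half-site in 3 (9.09%) and in 8.20%. Both strands were searched for each motif, and GGGCGG and CCAAT did not overlap in the windows shown. A match of letters is a description and not a binding site.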

How the data were processed

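Total RNA of 16 tumours was labelled and hybridised to 1-colour Agilent arrays. Per the file headers, the deposited scanner files hold intensity on a linear scale, background-subtracted and detrended by Feature Extraction 10.7.3.1 (9.5.3.1 per the submitters' processing notes), with flags as other values. The authors' value table holds intensity that correlated with it at 0.9925 to 1 on the log2 scale.

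Here log2 processed signals minus each array's 75th percentile were averaged over spots of a probe without outlier flags. Probes were named by accession, then symbol, through RefSeq; coordinates (mm9) come from the deposited probe annotation. A probe entered the fit if 4 or more of 16 arrays read it well above background, and the brightest stood for its gene (15399 genes). Group means were fitted with limma 3.58.1 in R 4.3.3, with p-values adjusted over all genes per comparison (Benjamini-Hochberg, threshold 0.05); the script was tested on simulated data. The number of arrays limits precision.

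Named genes are every collagen gene called in any comparison, 17 listed chains, the 3 of widest range per class, and up to 4 called genes per direction of each other list; other collagens, Sox9, Kdr and Fap were named after their values were seen. Members, classes and lists were chosen with earlier results of these data known. Same-numbered arrays deviated together in 9 of 24 pairs (correlation -0.46 to 0.54), so the pairing rests on the slide alone. Alternatives were other backgrounds, scalings, filters and probe rules, the authors' table, slide as a block, array weights, moderation and arrays left out; 3, including each slide left out, were added after seeing the data. Other scalings moved the median of all genes by up to -0.14.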

Additional observations from a re-analysis of the deposited data

Results flagged for a closer look

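Among 88 sets of 4 tumours (a named collagen gene in a group), 5 held 1 value far from the other 3 by Dixon's ratio, and chance flags about 1 in 20. Col7a1 in ALA plus X-ray replicate 1 was -0.42 where the other 3 tumours were 1.19 to 1.40. Col5a1 in ALA replicate 1 was 1.64 against -0.03 to 0.20, and Col6a1 in the same tumour was -0.67 against -1.41 to -1.37. In control replicate 4, Col4a5 was -1.69 against -2.96 to -2.78, and Col4a2 was 1.82 against 1.69 to 1.71, a gap that is small in size.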

How the results depend on the processing

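None of the 29 gene calls reversed its direction under an alternative, while class medians near 0 crossed it. Counts of collagen genes called moved as follows. After X-ray alone it was 1 with normexp background (3.22% of all genes called), 1 with median scaling (0.182%) and 0 without a filter (0.01%). As reported it was 3 (3.37%). ALA plus X-ray against X-ray gave 4 with normexp background (3.38% of all genes), 0 without a filter (0.0367%) and 3 with every probe on its own (1.45% of probes). It gave 0 with only the arrays compared (0.00649% of all genes) and 13 with array weights (14.1%). As reported it was 1 (2.07%). Against control it was 5 with only the arrays compared and 11 with every probe on its own. It was 12 with normexp background and 18 with array weights (8 as reported). The share of all genes called was also lower with only the arrays compared. It was higher with normexp background and, by more, with array weights, so the larger collagen counts there came with more calls of any gene. With every probe on its own, the share of probes called was slightly below the share of genes as reported. Against ALA the count was 10 without a filter and 5 with only the arrays compared (17 as reported), and the share of all genes called was lower in both. The interaction gave 1 with every probe on its own (0.874% of probes), a Col3a1 probe above background on 0 ALA and 0 X-ray arrays. It gave 11 with array weights (13.1% of all genes), with 0 as reported (1.23%). With slide as a replicate block, a pairing that the headers give, calls against ALA were 10 up and 4 down, where 26.6% of all genes were called. Col14a1, Col3a1, Col4a5 and Col8a1 lost theirs (limma, adjusted p = 0.0596, 0.0691, 0.056 and 0.06). Col6a4 gained one, and Col5a1 lost its call against control (limma, adjusted p = 0.0609). No other collagen call changed with it.

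The basement membrane median was -0.16 after X-ray with every probe on its own (0.09 as reported). In ALA plus X-ray against control it was -0.16 without a filter, -0.33 with every probe on its own and -0.33 for type IV alone (0.01 as reported). The median of the other collagens against ALA was 0.29 with normexp background and 0.43 without a filter.

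With single arrays or slides left out, calls ranged from 0 to 3 after X-ray, 0 to 0 for ALA, 0 to 16 against X-ray, 2 to 16 against control, 2 to 20 against ALA and 0 to 11 for the interaction. In that order, fibrillar medians ranged from -0.32 to 0.04, -0.84 to -0.03, 0.96 to 1.72, 0.89 to 1.70, 1.27 to 2.36 and 1.07 to 2.56. Basement membrane medians ranged from -0.01 to 0.17, -0.21 to 0.10, -0.33 to 0.02, -0.19 to 0.17, -0.31 to -0.03 and -0.28 to 0.19. Those of the others ranged from -0.13 to 0.14, -0.23 to 0.03, 0.08 to 0.47, 0.20 to 0.79, 0.41 to 1.18 and 0.13 to 0.68. The share of all genes called also varied over these fits. After X-ray alone it was 0.00649% without X-ray replicate 1 and 3.45% without ALA replicate 2. The causes were not tested. Signal limits Col12a1, Col27a1, Col6a4 and Col9a3, which were near background on most or many arrays, and 11 collagens could not be tested.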
